A study of Mus musculus with 6 samples.

Results

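The genes described here are 54 genes of mitosis, among them kinesins, kinetochore subunits, mitotic kinases, condensin subunits and cytokinesis factors, measured in mouse regulatory T cells (Tregs). They were listed by name, and the list was chosen with earlier results of these data known. Each was read from the array row paired with its symbol alone, and a gene with several such rows was read from the row with the highest mean. In this way 53 of the 54 were found, out of 19937 genes with such a row in all, and all 53 passed the filter on low values that left 15037 genes for testing. Ccnb1, which encodes cyclin B1, was not analysed here.

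Total T cells of wild-type donors were injected into recipients without CD3ε, which make no T cells of their own. One group of recipients kept MHC class II (MHC II-competent, CD3ε deficient) and the other lacked it as well (MHC II-deficient, deficient for both CD3ε and MHC class II). The samples are labelled as C57BL/6, aged 6 to 8 weeks, without saying whether this describes donors, recipients or both. On day 5, CD4+ TCRβ+ CD25+ cells of peripheral lymph nodes and spleen were enriched on magnetic beads and sorted, and 100 ng of total RNA was labelled for Affymetrix whole-transcript arrays. There were 3 arrays per group, called competent 1 to 3 and deficient 1 to 3 below. The labels call the replicates biological but do not say whether each is 1 recipient or a pool, so the errors cover the spread between these preparations, whatever they hold. The gate used CD25 and not Foxp3, and the transferred cells were total T cells, so the sort can hold other CD25+ cells. The comparison asks how the sorted cells differ when the recipient offers their T cell receptors no MHC class II.

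Tregs in a host with few T cells divide, and the receptor's contact with MHC class II is among the signals for it. A dividing cell makes most of the transcripts described here late in its cycle, around G2 and M phase, and few of them when at rest. Cyclins and kinases start mitosis, condensins compact the chromosomes, kinesins and other microtubule proteins build the spindle, kinetochores fasten the chromosomes to it, a checkpoint delays their separation until all are attached, and cytokinesis splits the cell. Many of these genes carry near their start a CHR (cell cycle genes homology region), a short element at which repressing and activating cell cycle complexes bind, and CCAAT boxes bound by the factor NF-Y.

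All values are on the deposited log2 scale. A difference is the mean of the deficient arrays less that of the competent arrays, with limma's standard error (SE), and a gene is said to have fallen when its Benjamini-Hochberg p adjusted over all 15037 genes was under 0.05. Some counts use limma's unadjusted p under 0.05. By rank of p, between 1989 and 3170 of the 15037 genes were under it, both directions together. The array medians lay between 6.11 and 6.25, and the median difference over all tested genes was 0.02. Of 9 Treg and CD4 T cell markers, all were tested and 0 passed in limma's test (3 lower and 0 higher at an unadjusted p under 0.05), with a median difference of -0.14 and all 9 below 0. For 5 of the 9 every deficient array lay below every competent one, against 12.9% of all tested genes. The 3 lower ones were Ctla4 (-0.33), Ikzf2 (-0.29) and Il2ra (-0.27). The direction did not hold across settings for Foxp3, Cd4, Cd3e and Tnfrsf18. All of these turned above 0 under quantile normalization, Cd4 also without competent 1, and Tnfrsf18 also without competent 1, competent 2 or deficient 3. The mean of the 9 markers lay between 11.07 and 11.23 in the competent and between 10.98 and 11.04 in the deficient arrays. Foxp3 averaged 9.82 ± 0.05 and 9.77 ± 0.09 (SD, n = 3).

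Of the 53 tested genes, 26 fell in the cells from MHC II-deficient recipients and 0 rose. By limma's test 2.03% of all tested genes were called lower and 1.34% higher, 3.37% in all, against 49.1% of these 53 called lower. At an unadjusted p under 0.05, 46 were lower and 0 higher. All 53 differences lay below 0, from -1.11 (Spc25) to -0.02 (Smc4), though Cdc20 and Smc4 turned above 0 under quantile normalization. Of all tested genes 46% lay below 0. The median difference was -0.53, a level 1.45-fold lower. The groups did not overlap for 44 of the 53 (83.0%), against 12.9% of all tested genes with every deficient array below every competent one. A size of at least 1.5-fold was reached by 24 of the genes, 20 of them called, and at least 2-fold by 1. A difference of -0.58 or lower, close to 1.5-fold, was found in 45.3% of the 53 genes and 1.78% of all tested genes. For -1 or lower the shares were 1.89% and 0.24%. The arrays measure the whole sort, so fewer dividing cells and less of each transcript per dividing cell cannot be told apart.

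The mean of the 53 genes was 8.78, 8.84 and 8.64 in competent 1 to 3 and 8.11, 8.21 and 8.29 in deficient 1 to 3. Every deficient array lay below every competent array, and the group difference of -0.55 compares with SDs of 0.10 and 0.09 (n = 3). Within the groups the genes leaned the same way. Competent 2 was the highest of its group for 31 of the 53 genes and competent 3 the lowest for 30, while deficient 1 was the lowest of its group for 34 and deficient 3 the highest for 27. The genes share these arrays, so they are not 53 separate observations of the condition. With 1 array left out, which also lowers precision, the number called changed. It was 12 without competent 1, 5 without competent 2, 31 without competent 3, 5 without deficient 1, 9 without deficient 2 and 20 without deficient 3, while the median difference lay between -0.61 and -0.52. Over the same fits the count over all tested genes, 507 with 6 arrays, went from 159 (without deficient 1) to 708 (without competent 3). Cenph, Cenpf, Cenpk and Aspm were past the threshold in all 6 of these fits and under the 8 other alternatives. The other 22 calls ended without at least 1 array.

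**Figure D1:**
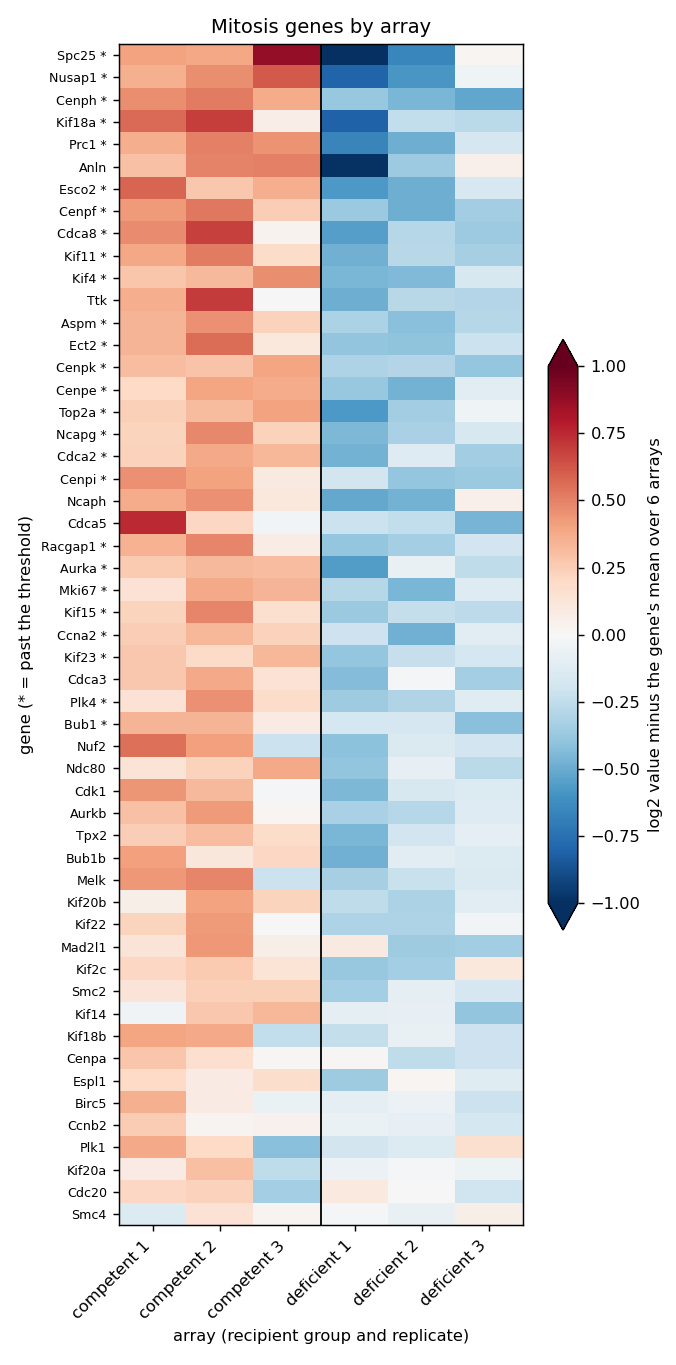
Each row is 1 of the 53 genes, ordered by its difference, and each column 1 array. Colour gives the log2 value minus the gene's mean over the 6 arrays (red above, blue below, limits at ±1), and an asterisk marks the 26 genes that fell. The 3 competent columns are mostly red and the 3 deficient columns mostly blue, with competent 3 the palest of the first and deficient 1 the darkest of the second.

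**Figure D2:**
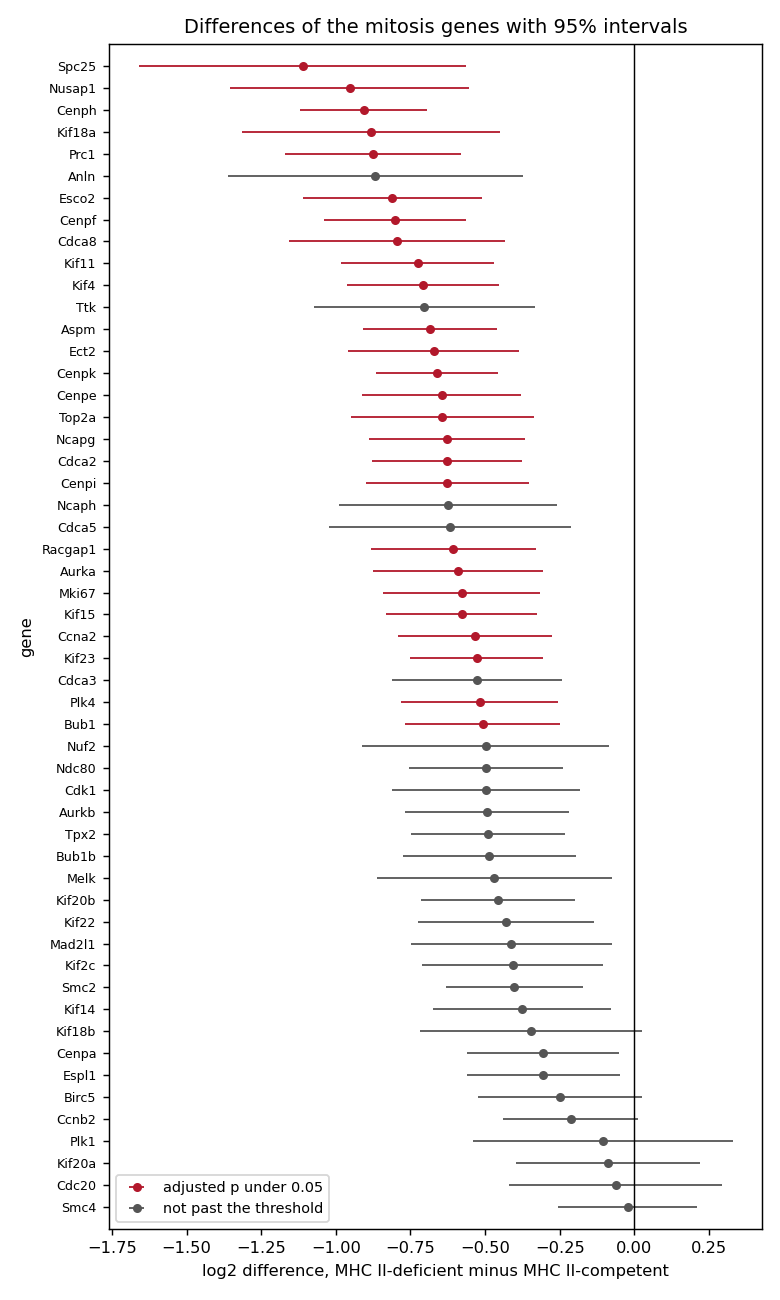
The log2 difference of each of the 53 genes with its 95% interval, as points and bars, with genes that fell in red and the others in grey. All points lie left of 0, where Cdc20 and Smc4 did not stay under quantile normalization, and the intervals of 7 genes reach past it: Kif18b, Birc5, Ccnb2, Plk1, Kif20a, Cdc20 and Smc4.

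Promoter sequences are shown for members whose calls held under every alternative and for members with a high p. Cenph, Cenpf and Aspm are 3 of the 4 genes that fell under every processing alternative tried, each with 1 window, and Cdc20 and Plk1 are among the 4 with the highest p. Each window runs from 250 bases before to 50 bases after the transcript's start in RefSeq on build GRCm38.p6, 5′ to 3′ on the gene's strand. Capitals mark the letters TTTGAA, the usual core of the CHR, and CCAAT, each on either strand.
Cenph, chr13:100775850-100776149, - strand: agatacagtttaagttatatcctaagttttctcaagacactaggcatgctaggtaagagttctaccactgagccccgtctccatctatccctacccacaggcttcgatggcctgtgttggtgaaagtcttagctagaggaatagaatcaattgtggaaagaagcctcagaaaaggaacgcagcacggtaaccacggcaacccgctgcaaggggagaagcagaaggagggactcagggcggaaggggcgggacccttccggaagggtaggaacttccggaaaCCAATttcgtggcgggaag
Cenpf, chr1:189688037-189688336, - strand: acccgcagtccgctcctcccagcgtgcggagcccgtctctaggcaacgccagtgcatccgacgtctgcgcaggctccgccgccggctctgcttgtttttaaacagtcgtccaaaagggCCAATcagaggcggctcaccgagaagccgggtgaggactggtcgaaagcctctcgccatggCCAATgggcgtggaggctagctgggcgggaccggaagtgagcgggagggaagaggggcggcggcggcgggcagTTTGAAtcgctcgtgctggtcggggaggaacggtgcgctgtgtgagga
Aspm, chr1:139454523-139454822, + strand: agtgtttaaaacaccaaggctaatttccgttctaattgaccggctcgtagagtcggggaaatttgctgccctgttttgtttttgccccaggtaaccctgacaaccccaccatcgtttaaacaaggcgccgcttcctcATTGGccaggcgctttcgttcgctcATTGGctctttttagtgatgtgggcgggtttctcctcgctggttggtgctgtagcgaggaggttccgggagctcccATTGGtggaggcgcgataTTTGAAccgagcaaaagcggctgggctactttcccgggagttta
Cdc20, chr4:118437294-118437593, - strand: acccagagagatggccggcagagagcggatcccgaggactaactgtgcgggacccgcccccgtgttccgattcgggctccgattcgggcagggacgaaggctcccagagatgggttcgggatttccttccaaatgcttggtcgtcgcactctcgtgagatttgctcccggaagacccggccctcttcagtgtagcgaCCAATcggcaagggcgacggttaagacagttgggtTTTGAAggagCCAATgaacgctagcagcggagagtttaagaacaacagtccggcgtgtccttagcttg
Plk1, chr7:122159185-122159484, + strand: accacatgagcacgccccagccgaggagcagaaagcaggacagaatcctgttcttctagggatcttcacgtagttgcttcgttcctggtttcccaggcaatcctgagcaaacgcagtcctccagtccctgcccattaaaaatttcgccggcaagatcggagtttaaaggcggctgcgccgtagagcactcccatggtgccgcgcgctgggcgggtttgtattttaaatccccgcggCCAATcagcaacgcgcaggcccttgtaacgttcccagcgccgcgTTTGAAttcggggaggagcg

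In these windows the CHR letters began 2 bases after the start in Cenpf, 6 after it in Aspm and 30 after it in Plk1, and 18 bases before it in Cdc20, while Cenph has no match. Cenpk, the other gene of the 4 that fell under every alternative, has 3 windows, 0 of them with the CHR letters and all 3 with CCAAT, so 2 of these 4 genes lack a CHR match. A CCAAT match stood upstream of the CHR in Cenpf, Aspm, Plk1 and Cdc20. Of the 54 genes, 47 had at least 1 window, 51 windows in all. Aurkb, Tpx2, Kif20a, Cdca2, Smc4, Esco2 and Ccna2 had none. The CHR letters were in 35 of the 51 windows (68.6%), against 17.9% of the 32851 windows of all genes in the table. CCAAT was in 37 of 51 (72.5%) against 37.4%, and both were in 29 of 51 (56.9%) against 7.0%. Both strands were searched, and matches of the 2 motifs can share only an end base. A match is a string of letters in a window and not a measured binding site. Among the 27 windows of members that fell, 63.0% held the CHR letters and 85.2% CCAAT. Among the 23 windows of tested members that did not pass, the shares were 78.3% and 56.5%. Cenpk, Prc1 and Ect2 have several windows and count more than once among the 27. By gene, 15 of the 23 genes with windows that fell held the CHR letters and 19 CCAAT. For the 23 genes with windows that did not pass the counts were 18 and 13. No test was made of these shares.

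**Figure D3:**
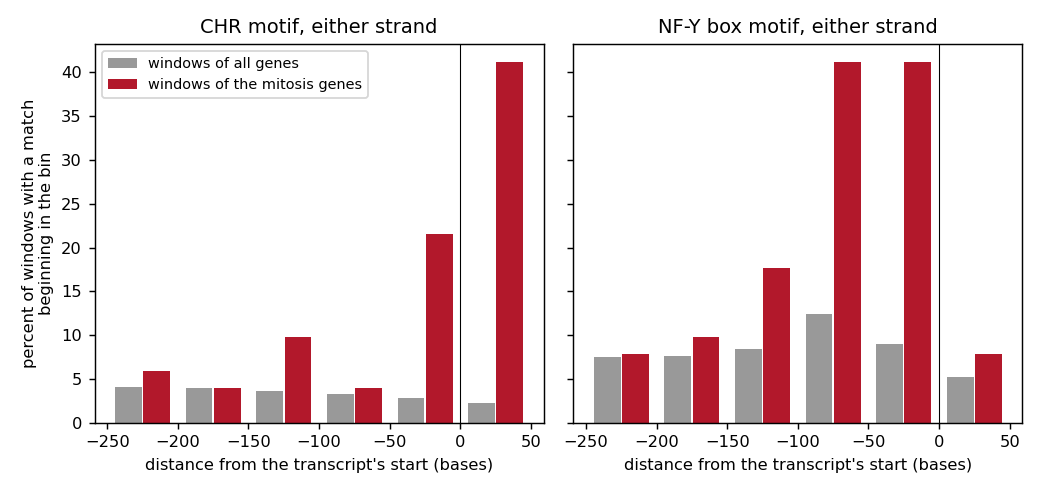
Percent of promoter windows with a match that begins in each 50-base bin, for the CHR letters (left) and the CCAAT or NF-Y box (right), plotted against distance from the transcript's start in bases. Red bars are the 51 windows of the mitosis genes and grey bars the 32851 windows of all genes. For the CHR the red bars peak from the start to 49 bases after it (41.2% against 2.25%), and for the CCAAT box in both bins within 100 bases before the start (41.2% each, against 12.5% and 9.03%).

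The genes that start and end mitosis gave 1 that fell among 5 tested, with a median difference of -0.50. Ccna2 encodes cyclin A2, which drives S phase and entry into mitosis, and stood at 10.02, 10.11 and 10.004 in the competent arrays and 9.57, 9.29 and 9.67 in the deficient arrays. It fell (log2 difference -0.53, SE 0.11, adjusted p = 0.0406), and its groups did not overlap. The value of Cdk1, the kinase that cyclins A and B switch on, was 9.21, 9.09 and 8.75 in the competent arrays and 8.32, 8.60 and 8.63 in the deficient arrays (log2 difference -0.50, SE 0.14, adjusted p = 0.0969). Its groups did not overlap either, yet competent 3 was only 0.12 above the highest deficient array. Cdca3, which promotes mitotic entry through the degradation of Wee1, stood at 8.29, 8.40 and 8.17 in the competent arrays and 7.59, 8.000 and 7.69 in the deficient arrays (log2 difference -0.53, SE 0.13, adjusted p = 0.0567). Cdc20 activates the anaphase-promoting complex, the ubiquitin ligase that ends mitosis, and read 8.35, 8.37 and 7.81 in the competent arrays and 8.24, 8.15 and 7.95 in the deficient arrays. Here the groups overlapped (log2 difference -0.06, SE 0.16, adjusted p = 0.874), and its 95% interval ran from -0.42 to 0.29. Its sign turned under quantile normalization, so no direction is given. Ccnb2, the gene of cyclin B2, had groups that did not overlap and a difference of -0.21 (95% interval -0.44 to 0.01). The call ended for Ccna2 without competent 1 or 2 or deficient 1 or 2 (highest adjusted p 0.134). Quantile normalization ended it too, as did the replicate number as a block in the fit (adjusted p = 0.0603 and 0.051). Conversely, Cdk1 passed without competent 3 (adjusted p = 0.0296) and Cdca3 without competent 3 or deficient 2 (adjusted p up to 0.0478). Cdk1 also passed with array weights (adjusted p = 0.043), and Cdca3 with the replicate block (0.0386).

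Among 7 mitotic kinases 3 fell, with a median difference of -0.51. Aurka, whose kinase acts at centrosomes and spindle poles, stood at 8.76, 8.82 and 8.81 in the competent arrays and 7.94, 8.43 and 8.25 in the deficient arrays and fell (log2 difference -0.59, SE 0.13, adjusted p = 0.0398). Its competent arrays lay within 0.06 of each other, while the deficient ones were spread over 0.48. Plk4, which controls centriole duplication, stood at 9.30, 9.61 and 9.34 in the competent arrays and 8.81, 8.86 and 9.04 in the deficient arrays (log2 difference -0.52, SE 0.12, adjusted p = 0.0478), and Bub1, a kinase of the spindle checkpoint, at 8.80, 8.81 and 8.55 in the competent arrays and 8.29, 8.30 and 8.05 in the deficient arrays (log2 difference -0.51, SE 0.12, adjusted p = 0.0484). Both fell, with groups that did not overlap. The lowest adjusted p among kinases that did not pass was that of Ttk, which encodes the checkpoint kinase Mps1, at 7.96, 8.30 and 7.59 in the competent arrays and 7.11, 7.33 and 7.31 in the deficient arrays (log2 difference -0.70, SE 0.16, adjusted p = 0.0525). Plk1, the polo-like kinase of mitotic entry and spindle assembly, read 8.56, 8.38 and 7.76 in the competent arrays and 7.99, 8.04 and 8.34 in the deficient arrays. Competent 3 was the lowest of all 6 arrays and the groups overlapped (log2 difference -0.11, SE 0.19, adjusted p = 0.821), and the sign turned without competent 1. Aurkb, the kinase of the chromosomal passenger complex, stood at 8.62, 8.75 and 8.35 in the competent arrays and 8.004, 8.04 and 8.20 in the deficient arrays (log2 difference -0.49, SE 0.12, adjusted p = 0.0635), and Melk at a difference of -0.47 (adjusted p = 0.186). With 1 array left out the calls ended for Aurka without competent 1, 2 or 3 or deficient 1 or 3 (highest adjusted p 0.128) and for Plk4 and Bub1 without competent 1 or 2 or deficient 1, 2 or 3 (highest adjusted p 0.175 and 0.148). Quantile normalization ended the calls of Aurka, Plk4 and Bub1 (adjusted p = 0.0766, 0.0731 and 0.068). Median centring ended those of Plk4 and Bub1 (0.0593 and 0.0508), as did omitting the filter on low values (0.0516 and 0.0529). The replicate block ended that of Plk4 (0.0526). Conversely, Ttk, Aurkb and Melk passed without competent 3 (adjusted p = 0.0114, 0.0222 and 0.0116). Ttk also passed with array weights, the filter at the median or a trended robust prior (adjusted p = 0.0226, 0.0475 and 0.0438), and Aurkb with array weights (0.0293). With the replicate block Ttk passed as well (0.0265).

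The other checkpoint and passenger genes gave 1 more gene that fell. Cdca8 encodes borealin, a subunit of the passenger complex that corrects faulty attachments, and it stood at 8.57, 8.78 and 8.13 in the competent arrays and 7.55, 7.81 and 7.73 in the deficient arrays. It fell (log2 difference -0.80, SE 0.16, adjusted p = 0.0316) and is the 1 gene of the 3 passenger genes that passed. Birc5, whose product survivin is another subunit, stood at 10.46, 10.19 and 10.04 in the competent arrays and 10.003, 10.05 and 9.89 in the deficient arrays, and competent 3 lay below deficient 2 (log2 difference -0.25, SE 0.12, adjusted p = 0.313). Mad2l1, the gene of the checkpoint inhibitor Mad2, stood at 9.74, 10.04 and 9.66 in the competent arrays and 9.70, 9.25 and 9.26 in the deficient arrays, with deficient 1 above competent 3 (log2 difference -0.41, SE 0.15, adjusted p = 0.175). Bub1b, which encodes the checkpoint protein BubR1, differed by -0.49 (adjusted p = 0.0777) with groups that did not overlap, and passed with array weights (0.0488). Of the 4 checkpoint genes, Bub1 was the 1 that fell. The call ended for Cdca8 without competent 1 or 2 or deficient 1, 2 or 3 (highest adjusted p 0.127).

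Genes of chromosome structure gave 5 that fell among 10, with a median difference of -0.62. Esco2, an acetyltransferase that fixes cohesin between sister chromatids, stood at 7.75, 7.44 and 7.53 in the competent arrays and 6.60, 6.68 and 7.01 in the deficient arrays and fell 1.75-fold (log2 difference -0.81, SE 0.13, adjusted p = 0.0145). Top2a, the topoisomerase that untangles chromosomes, stood at 10.97, 11.05 and 11.13 in the competent arrays and 10.15, 10.38 and 10.68 in the deficient arrays (log2 difference -0.64, SE 0.14, adjusted p = 0.0373). Both were lower in every deficient array, and the second row of Top2a differed by -0.28, at a mean of 4.45. Mki67, whose protein coats mitotic chromosomes and marks cycling cells, stood at 9.98, 10.22 and 10.18 in the competent arrays and 9.55, 9.38 and 9.71 in the deficient arrays and fell (log2 difference -0.58, SE 0.12, adjusted p = 0.0311). The condensin I gene Ncapg stood at 9.56, 9.82 and 9.57 in the competent arrays and 8.89, 9.01 and 9.17 in the deficient arrays (log2 difference -0.63, SE 0.12, adjusted p = 0.0229) and Cdca2, whose product brings a phosphatase to anaphase chromosomes, at 7.53, 7.68 and 7.63 in the competent arrays and 6.83, 7.18 and 6.96 in the deficient arrays (log2 difference -0.63, SE 0.11, adjusted p = 0.0198). Both fell, with groups that did not overlap. Smc4, a core subunit of both condensins, read 10.93, 11.21 and 11.10 in the competent arrays and 11.05, 10.99 and 11.13 in the deficient arrays, with groups that overlapped and the smallest difference of the 53 genes (log2 difference -0.02, SE 0.10, adjusted p = 0.93, 95% interval -0.26 to 0.21). Its sign turned under quantile normalization. Its partner Smc2 differed by -0.40 (adjusted p = 0.0675), the condensin I gene Ncaph by -0.62 (0.0734), the sororin gene Cdca5, which protects cohesion, by -0.62 (0.105) and the separase gene Espl1 by -0.31 (0.187). Calls were lost for Esco2 without deficient 1 or 2 (highest adjusted p 0.0678), for Top2a without competent 1, 2 or 3 or deficient 1 or 2 (highest adjusted p 0.127), for Mki67 without competent 2 or 3 or deficient 1 or 2 (highest adjusted p 0.118), for Ncapg without competent 2 or deficient 1 or 2 (highest adjusted p 0.101) and for Cdca2 without competent 2 or deficient 1 or 3 (highest adjusted p 0.0875). Quantile normalization ended the calls of Top2a and Mki67 (adjusted p = 0.0753 and 0.0505). With the mean of both its rows Top2a differed by -0.46 and did not pass (adjusted p = 0.111). Conversely, Ncaph passed without competent 3 or deficient 3 (adjusted p up to 0.0478) and Cdca5 without competent 3 (adjusted p = 0.0345). Both also passed with array weights (adjusted p = 0.0448 and 0.0381), and Smc2 passed with a trended robust prior (0.0491). Cdca5 passed with the replicate block too (0.0345).

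Of the 12 kinesins, Cenpe included, 6 fell and the median difference was -0.49. Kif11 encodes Eg5, the motor that pushes the spindle poles apart, and stood at 9.83, 9.96 and 9.63 in the competent arrays and 8.96, 9.17 and 9.11 in the deficient arrays. It was 1.65-fold lower (log2 difference -0.73, SE 0.11, adjusted p = 0.0119), and its groups did not overlap. Kif4, a kinesin of chromosome arms and the central spindle, stood at 8.25, 8.30 and 8.45 in the competent arrays and 7.52, 7.54 and 7.82 in the deficient arrays (log2 difference -0.71, SE 0.11, adjusted p = 0.0126) and Kif18a, which restrains chromosome movement at the plate, at 7.49, 7.62 and 6.997 in the competent arrays and 6.12, 6.68 and 6.66 in the deficient arrays (log2 difference -0.88, SE 0.19, adjusted p = 0.0419). Both fell, and only Spc25 had a larger SE than Kif18a among the 26 genes called. Kif15, which can take over from Eg5, stood at 8.84, 9.11 and 8.77 in the competent arrays and 8.25, 8.38 and 8.36 in the deficient arrays (log2 difference -0.58, SE 0.11, adjusted p = 0.0281) and Kif23, a motor of the central spindle, at 9.48, 9.40 and 9.54 in the competent arrays and 8.82, 8.98 and 9.03 in the deficient arrays (log2 difference -0.53, SE 0.099, adjusted p = 0.0243). These fell by less, again with every deficient array below every competent one. Kif20a, which carries passenger proteins to the central spindle, read 7.40, 7.61 and 7.06 in the competent arrays and 7.25, 7.30 and 7.26 in the deficient arrays, and all 3 deficient arrays lay between competent 3 and competent 1 (log2 difference -0.09, SE 0.14, adjusted p = 0.784). Without competent 2 its sign turned (0.04). Kif18b, a regulator of astral microtubules, stood at 7.53, 7.52 and 6.89 in the competent arrays and 6.90, 7.07 and 6.93 in the deficient arrays, where competent 3 lay below all 3 deficient arrays (log2 difference -0.35, SE 0.17, adjusted p = 0.301). The other kinesins did not pass, with Kif20b at -0.46 (adjusted p = 0.0657), Kif22, a motor of chromosome arms, at -0.43 (0.119), the microtubule depolymerase gene Kif2c at -0.41 (0.145) and Kif14 at -0.38 (0.164). A second row of Kif14, at a mean of 3.63, differed by -0.0044. Calls were lost for Kif11 without competent 2 or deficient 1 (highest adjusted p 0.0628), for Kif4 without competent 2 or deficient 1 or 2 (highest adjusted p 0.0655), for Kif18a and Kif15 without competent 1 or 2 or deficient 1, 2 or 3 (highest adjusted p 0.156 and 0.119) and for Kif23 without competent 1 or 2 or deficient 1 or 2 (highest adjusted p 0.111). Median centring ended the call of Kif18a (adjusted p = 0.0554) and quantile normalization that of Kif23 (0.0518). Conversely, Kif18b passed without competent 3 (adjusted p = 0.0237) and Kif2c without deficient 3 (adjusted p = 0.0402).

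Genes of the spindle and its microtubules outside the kinesins fell in 3 of 4 cases. Nusap1, a microtubule protein of the central spindle region, stood at 8.94, 9.05 and 9.19 in the competent arrays and 7.78, 7.997 and 8.54 in the deficient arrays and was 1.94-fold lower (log2 difference -0.95, SE 0.18, adjusted p = 0.0232). Deficient 3 lay 0.40 below the lowest competent array, and deficient 1 a further 0.76 below that. Aspm, which works at spindle poles, stood at 8.04, 8.16 and 7.94 in the competent arrays and 7.38, 7.28 and 7.41 in the deficient arrays (log2 difference -0.69, SE 0.10, adjusted p = 0.00797), and Prc1, which bundles the microtubules of the central spindle, at 8.41, 8.55 and 8.49 in the competent arrays and 7.38, 7.55 and 7.88 in the deficient arrays (log2 difference -0.88, SE 0.13, adjusted p = 0.00879). In both the groups were apart by more than 0.5. Tpx2, the activator of Aurora A on the spindle, differed by -0.49 (adjusted p = 0.0518). It passed with array weights, the filter at the median or a trended robust prior (adjusted p = 0.0403, 0.0452 and 0.0495), and just passed with the mean of all rows of a gene. With 7 spindle kinesins added, 7 of 11 spindle genes fell and the median was -0.69. Calls were lost for Nusap1 without competent 1 or 2 or deficient 1 or 2 (highest adjusted p 0.0983) and for Prc1 without competent 2 (adjusted p = 0.0569).

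Centromere and kinetochore genes had 6 that fell among 9 and a median difference of -0.65. Cenph (row 10411728) stood at 9.25, 9.31 and 9.16 in the competent arrays and 8.41, 8.33 and 8.26 in the deficient arrays, and Cenpk (row 10406968) at 9.51, 9.50 and 9.60 in the competent arrays and 8.90, 8.91 and 8.82 in the deficient arrays. They encode subunits of the inner kinetochore, and the arrays of each group lay within 0.15 of each other for both genes. Cenph was 1.87-fold lower (log2 difference -0.91, SE 0.095, adjusted p = 0.00225) and Cenpk 1.58-fold (log2 difference -0.66, SE 0.091, adjusted p = 0.00656). Another inner subunit gene, Cenpi, stood at 6.66, 6.60 and 6.29 in the competent arrays and 6.02, 5.82 and 5.83 in the deficient arrays and fell (log2 difference -0.63, SE 0.12, adjusted p = 0.0281). Cenpf (row 10360985), the gene of a large protein of the outer kinetochore, stood at 8.49, 8.59 and 8.30 in the competent arrays and 7.69, 7.57 and 7.71 in the deficient arrays (log2 difference -0.80, SE 0.11, adjusted p = 0.00559), and Cenpe, a kinetochore motor that brings chromosomes to the plate, at 9.24, 9.43 and 9.41 in the competent arrays and 8.66, 8.56 and 8.92 in the deficient arrays (log2 difference -0.65, SE 0.12, adjusted p = 0.022). Both fell, with a gap between the groups. Of the Ndc80 complex, which grips the microtubule, Spc25 read 8.28, 8.27 and 8.76 in the competent arrays and 6.85, 7.23 and 7.91 in the deficient arrays. It had the largest difference of the 53 genes, a 2.16-fold lower level, and also the largest SE (log2 difference -1.11, SE 0.24, adjusted p = 0.043). The complex gene Nuf2 stood at 9.32, 9.18 and 8.56 in the competent arrays and 8.36, 8.62 and 8.58 in the deficient arrays, with competent 3 below both deficient 2 and deficient 3 (log2 difference -0.50, SE 0.18, adjusted p = 0.182), and Ndc80 itself differed by -0.50 (adjusted p = 0.0508). Cenpa, the centromeric histone, stood at 9.58, 9.48 and 9.32 in the competent arrays and 9.32, 9.05 and 9.10 in the deficient arrays, and the groups did not overlap, by a margin of 0.0065 (log2 difference -0.31, SE 0.11, adjusted p = 0.182). Calls were lost for Cenpi without competent 1 or 2 or deficient 1, 2 or 3 (highest adjusted p 0.106), for Cenpe without competent 2 or deficient 1 or 2 (highest adjusted p 0.0979) and for Spc25 without competent 1, 2 or 3 or deficient 1 or 2 (highest adjusted p 0.13). The call of Spc25 also ended under quantile normalization, median centring or no filter on low values (adjusted p = 0.0731, 0.0507 and 0.0516). Conversely, Nuf2 passed without competent 3 (adjusted p = 0.0142). Ndc80 passed with median centring, the filter at the median, the mean of all rows or a trended robust prior (adjusted p = 0.0393, 0.0448, 0.0488 and 0.0391).

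Cytokinesis genes, with Kif23, Kif14, Kif20a, Kif20b and Prc1 counted again, gave 4 that fell among 8 and a median of -0.57. Ect2 encodes the exchange factor that switches on RhoA at the cell's equator, and stood at 8.17, 8.39 and 7.94 in the competent arrays and 7.44, 7.43 and 7.61 in the deficient arrays (log2 difference -0.67, SE 0.13, adjusted p = 0.0246). Racgap1, the partner of Kif23 in centralspindlin, stood at 8.87, 9.01 and 8.60 in the competent arrays and 8.14, 8.19 and 8.34 in the deficient arrays (log2 difference -0.61, SE 0.12, adjusted p = 0.0321). Both fell, with groups that did not overlap. Anln, the gene of the contractile ring protein anillin, read 7.57, 7.77 and 7.78 in the competent arrays and 6.28, 6.91 and 7.32 in the deficient arrays. Its difference was among the 6 largest, but the deficient arrays were spread over 1.04 and it did not pass (log2 difference -0.87, SE 0.22, adjusted p = 0.0677). With 1 array left out the calls ended for Ect2 without competent 1 or 2 or deficient 1 or 2 (highest adjusted p 0.104) and for Racgap1 without competent 1 or 2 or deficient 1, 2 or 3 (highest adjusted p 0.127). Conversely, Anln passed without deficient 3 (adjusted p = 0.0204) and with the replicate block (0.0136).

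Other genes of the division programme were measured on the same arrays. The counts below stand beside 2.03% of all tested genes called lower and 1.34% called higher. At an unadjusted p under 0.05 there were between 1989 and 3170 of all 15037 genes in either direction. Of 69 other mitosis genes tested, 15 (21.7%) fell and 0 rose (47 lower and 1 higher at an unadjusted p under 0.05), with a median difference of -0.38. The 8 with the smallest p were Sgo2a (-0.93, adjusted p = 0.00679), Incenp (-0.78, 0.0087), Pbk (-0.87, 0.0163), Stil (-0.62, 0.0189), Dlgap5 (-0.51, 0.0189), Ska3 (-0.68, 0.0189), Wee1 (-0.68, 0.0198) and Cep55 (-0.57, 0.0237). Incenp is the scaffold of the passenger complex, Sgo2a a protector of centromeric cohesion, Wee1 the kinase that restrains Cdk1 and Ska3 a kinetochore subunit. The highest difference of that list was 0.33, of the securin gene Pttg1 (adjusted p = 0.128); its groups did not overlap, with the deficient arrays higher. Of 46 DNA replication genes, which act in S phase, 7 (15.2%) fell and 0 rose (28 lower and 0 higher at an unadjusted p under 0.05), with a median of -0.34. They were Mcm3 (-0.56, adjusted p = 0.0155), Rfc4 (-0.51, 0.0244), Pole2 (-0.60, 0.0301), Lig1 (-0.45, 0.036), Ticrr (-0.72, 0.0385), Pola1 (-0.47, 0.0398) and Prim2 (-0.58, 0.0438). Of 21 transcription factor genes of the cell cycle programme 1 (4.8%) fell, Myb (log2 difference -0.62, SE 0.11, adjusted p = 0.0189), and 0 rose. At an unadjusted p under 0.05, 9 of them were lower and 1 higher, and their median was -0.21. Foxm1, whose product activates late cell cycle genes, stood at 7.88 ± 0.70 (SD, n = 3) in the competent and 7.40 ± 0.21 in the deficient arrays (log2 difference -0.48, SE 0.29, adjusted p = 0.415), and Mybl2 at -0.21 (adjusted p = 0.408). Most of these calls ended in at least 1 of the fits with an array left out, which also have lower precision. Among the other mitosis genes the count was 3 without competent 2, deficient 1 or deficient 2, 6 without competent 1, 9 without deficient 3 and 20 without competent 3. Among the DNA replication genes it was 0 without competent 1, competent 2 or deficient 1, 1 without deficient 2, 2 without deficient 3 and 15 without competent 3. Incenp and Sgo2a kept their calls without any 1 of the 6 arrays, Myb lost it without competent 2 or deficient 1 or 2 (highest adjusted p 0.0851), and Foxm1 passed without competent 3 (adjusted p = 0.012). The differences between these lists and the 53 genes were not tested.

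**Figure D4:**
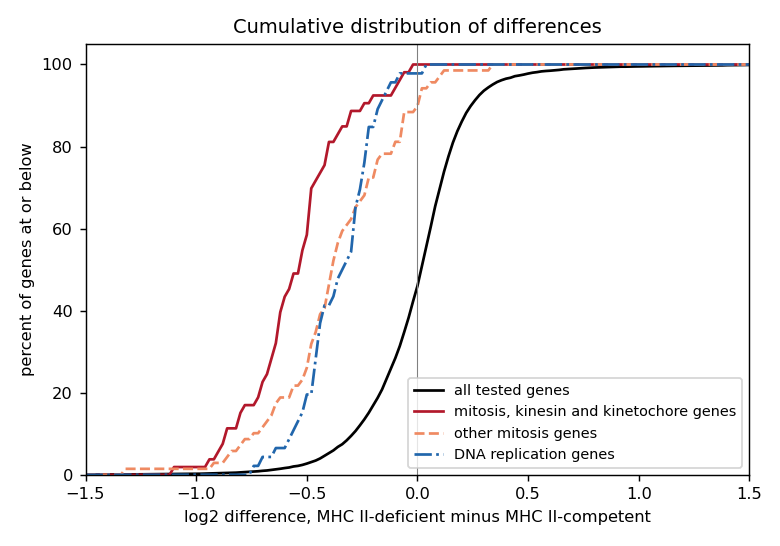
Cumulative percent of genes at or below each log2 difference, for all 15037 tested genes (black), the 53 genes (red), other mitosis genes (orange, dashed) and DNA replication genes (blue, dash-dotted). From -1 to -0.2 the red curve lies left of the others, and it reaches 100% just left of 0, where the black curve stands at 46%.

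Some markers of other cells differed between the groups as well. Of 18 tested myeloid and dendritic cell markers 1 rose (Adgre1, the F4/80 antigen) and 0 fell in limma's test (13 higher and 2 lower at an unadjusted p under 0.05), with 14 above and 4 below 0 and a median difference of 0.90. Adgre1 missed the threshold whenever an array other than deficient 3 was left out (highest adjusted p 0.105). Their mean was 6.69, 7.002 and 6.16 in competent 1 to 3 and 7.69, 7.47 and 6.93 in deficient 1 to 3, so the groups overlapped in competent 2 and deficient 3. Within the competent group the array with the highest myeloid mean, competent 2, also had the highest mean of the 53 genes, and competent 3 the lowest of both. In the deficient group the order was the opposite, with deficient 1 highest in myeloid markers and lowest in mitosis genes. B and plasma cell markers averaged 5.93 to 6.12 in the competent and 6.24 to 6.39 in the deficient arrays. Of the 7, 1 passed and was higher (Cd22, 1.32), with 2 higher and 1 lower at an unadjusted p under 0.05. Their median difference was 0.19, with 6 above 0 and 1 below it (Cd79b, -0.39). Pax5, at 0.02, turned below 0 under some settings. CD8 T and NK cell markers averaged 7.77 to 7.91 and 7.93 to 8.13 with 0 of 8 past the threshold (4 higher and 1 lower at an unadjusted p under 0.05), and erythroid and platelet markers 5.83 to 6.11 and 6.17 to 6.29 with 0 of 5 (2 higher and 0 lower). Of 10 markers of activated conventional CD4 T cells, Il17a and Il17f fell and Tbx21 rose, with means of 6.49 to 6.54 and 6.36 to 6.45. Over all tested genes 2.03% were called lower and 1.34% higher. At an unadjusted p under 0.05, 3 of the 10 were lower, Ifng (-0.41) among them, and 1 higher. Their median difference was -0.04, with 5 above and 5 below 0. The calls of Il17a, Il17f and Tbx21 each ended without at least 4 of the arrays in turn (highest adjusted p 0.109, 0.0851 and 0.0798), while that of Cd22 did not end without any. Array values have no true zero. The B cell gene Pax5 averaged 5.64 and 5.66 and the erythroid gene Epb42 5.24 and 5.43. The part of these cells in the lower values of the mitosis genes was not tested.

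**Figure D5:**
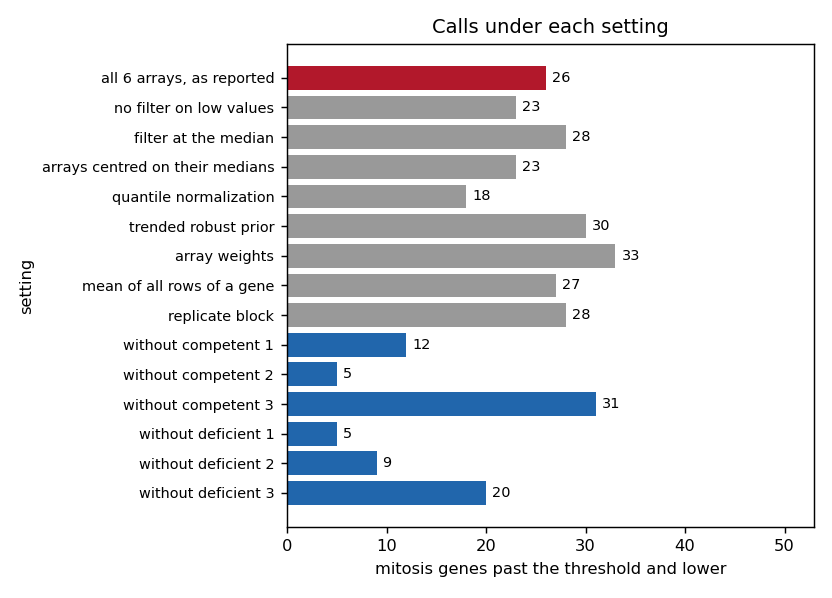
Number of the mitosis genes that fell, as bars from 0, under the reported fit (red), 8 other processing settings (grey) and with 1 array left out (blue). The other settings give 18 to 33 and leaving out an array 5 to 31, with the lowest counts without competent 2 or deficient 1.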

How the data were processed

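The authors deposited 1 table of log2 values, made with affy and RMA per the submitters' processing notes; versions, log base and array build are not given in the sources used here, and the values fit log2 in range. Its 28101 rows took gene names from the array platform's annotation: 21640 have 1 gene symbol, 1321 several and 5140 none. Genes with a mean under the 25th percentile of single-symbol rows (5.205) were left out. The 6 arrays were compared with limma 3.58.1 in R 4.3.3 (lmFit, eBayes, two-sided, Benjamini-Hochberg over 15037 genes), tested on simulated data first. Exact permutation of 3 against 3 arrays cannot go below p = 0.1. Precision is limited by the number of arrays. Per-array values are given for all genes that fell, for the 2 smallest and the largest p of each group of genes, and for Mki67, Top2a, Cdk1, Birc5, Plk1 and Aurkb; of related lists, up to 8 genes that passed. The members and lists were chosen with earlier results of these data known. Promoters are RefSeq's, matched by symbol. Alternatives changed the filter, normalization, prior, array weights, gene row, replicate block and arrays used.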

Additional observations from a re-analysis of the deposited data

How the results depend on the processing

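Under 8 alternatives with all 6 arrays, between 18 (quantile normalization) and 33 (array quality weights) of the mitosis genes fell and 0 rose, with a median difference between -0.59 and -0.46. Of all tested genes, 1.53% were called lower under quantile normalization and 2.97% with array weights, against 2.03% in the reported fit. Quantile normalization ended 8 calls, median centring 4, no filter 3 and the mean of all rows 1; array weights added 7. With 1 array left out, 5 to 31 fell, and the count over all genes went from 159 to 708; these fits have fewer samples. The differences of 4 mitosis genes near 0 turned positive. Under quantile normalization Cdc20 was 0.0022 and Smc4 0.0645, and with array weights Smc4 was 0.0174. With 1 array left out, Cdc20 ranged from -0.2474 to 0.0348 (above 0 without competent 1, competent 2 or deficient 3), Smc4 from -0.0957 to 0.0417 (above 0 without competent 2 or deficient 2), Plk1 from -0.3415 to 0.0576 (above 0 without competent 1) and Kif20a from -0.2372 to 0.0414 (above 0 without competent 2). Of the Treg and CD4 T cell markers, Foxp3 was 0.0203, Cd4 0.0196, Cd3e 0.0048 and Tnfrsf18 0.0782 under quantile normalization. With 1 array left out Cd4 ranged from -0.2052 to 0.0231 and Tnfrsf18 from -0.2642 to 0.1392. Pax5 was -0.0337 with median centring, -0.0473 under quantile normalization and -0.0278 with array weights, and from -0.1107 up to 0.1085 with 1 array left out. The cause was not tested. The reported fit does not take the replicate numbers as pairs. Deviations from the group means correlated at -0.025, -0.141 and 0.069 for same-numbered arrays. For arrays with different numbers they ranged from -0.127 to 0.168. With 3 arrays per group these values cannot settle whether the arrays were handled as pairs. With the replicate block 28 of the mitosis genes, 24 of them among the 26, and 564 genes in all passed.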
